A study of Homo sapiens with 12 samples.

Results

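The 10 nuclear genes act in the transcription, stabilisation and decay of the RNA of mitochondrial DNA. They were TFAM, POLRMT, TFB2M, TWNK, LRPPRC, SLIRP, MTPAP, PNPT1, SUPV3L1 and MTERF1. The genes were chosen by their function, with the levels of mitochondrial mRNA and rRNA after paeonol in SKOV3/DDP cells already known. All 10 were found by their symbols among the 46350 named genes of the files. The question was how their RNA levels lay beside that of the mitochondrial RNAs they serve. Because the PAE comparison in SKOV3/DDP led to the choice, its values and counts of genes past a threshold are given as a description, and nothing is read from them.

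The study sequenced poly-A RNA of SKOV3, a cisplatin-sensitive human epithelial ovarian cancer line, and of SKOV3/DDP, its cisplatin-resistant counterpart. Each line was left untreated or given paeonol (PAE), a phenol from peony root, which made 4 groups of 3 libraries: SKOV3, SKOV3_PAE, SKOV3/DDP and SKOV3/DDP_PAE. The labels give no dose, exposure time or batch, and each line is 1 lineage. The headers of the treated columns carry a different code in each line, which no source used here explains, so exposure may not be the same in both. Whether the 3 libraries of a group came from separate cultures is not clear from the design text, so p-values measure the spread between these libraries, which may be technical.

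Library totals ran from 14610008 to 18263479 counts, and 3 counts, the floor used for a gene at 0, equalled 0.164 to 0.205 CPM, counts scaled to a library of 1000000. The epithelial keratins KRT8 and KRT18 were abundant in all 12 libraries. KRT8 averaged 3307 CPM in SKOV3, 551 in SKOV3_PAE, 5273 in SKOV3/DDP and 1349 in SKOV3/DDP_PAE. The leukocyte marker PTPRC had at most 2 counts in any library. The Mullerian marker PAX8 averaged 29.7 CPM in SKOV3 and 4.12 in SKOV3/DDP, and MUC16 2.08 and 0.39. WT1 had at most 3 counts in any library. The epithelial adhesion gene EPCAM averaged 1.26 CPM in SKOV3 and 288 in SKOV3/DDP, and CDH1 7.62 and 442. Of the mesenchymal markers, VIM averaged 0.46 and 8.92 CPM and COL1A1 12.1 and 3.98. DCN had 0 counts in every SKOV3/DDP library. ERBB2 averaged 306 CPM in SKOV3, 66.7 in SKOV3_PAE, 96.4 in SKOV3/DDP and 32.2 in SKOV3/DDP_PAE. The untreated SKOV3 libraries stood apart by base composition. Their deviation from the mean of all libraries rose with the GC content of a gene's transcript (Spearman correlation across 15694 genes of 0.669 to 0.675), while in the other 9 libraries it fell with GC content (-0.533 to -0.325). Every comparison with untreated SKOV3 carries this difference, and it cannot be told apart from the groups. Such comparisons are therefore given with a second value, from a fit in which each library's trend on GC content and transcript length had been removed.

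Human mitochondrial DNA is transcribed from both strands into long polycistronic RNAs by the polymerase POLRMT, which starts at promoters with the help of TFAM and TFB2M. TFAM also coats and packages the DNA, and the helicase TWNK unwinds it for replication. The tRNAs are cut out of the long RNAs, which frees 13 mRNAs and 2 rRNAs. LRPPRC and SLIRP form a complex that binds and stabilises the mRNAs, MTPAP adds their poly-A tails, and PNPT1 with the helicase SUPV3L1 forms the degradosome that breaks mitochondrial RNA down. MTERF1 binds just downstream of the rRNA genes and is known for ending transcription there. On GRCh38 the files place TFAM at chr10:58385409-58399220, POLRMT at chr19:617221-633557, TFB2M at chr1:246540561-246566261, TWNK at chr10:100987543-100994403, LRPPRC at chr2:43886224-43995989, SLIRP at chr14:77708071-77717598, MTPAP at chr10:30309801-30349278, PNPT1 at chr2:55634061-55693853 and SUPV3L1 at chr10:69180234-69209093.

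Several nuclear genes for mitochondrial transcription share promoter elements for the activators NRF1 and GABP, so the promoters of the 10 genes were searched for both cores. RefSeq promoters (GRCh38.p14, 250 bases before to 50 after each gene start) were given for 9 of the 10, all but TWNK. The NRF1 core GCGCANGCG, on either strand, was found in 4 of the 9, against 7.52% of all 35116 promoters. The GABPA core CCGGAAGT, on either strand, was found in 2 of the 9, against 4.14% of all. The matches are printed because 3 of the 4 genes with the NRF1 core are the transcription initiation factors, with the core letters in capitals and each sequence on the strand of its gene. Distances are counted from the gene start of RefSeq. The start of POLRMT in RefSeq, base 633537, lies 20 bases inside the gene as the files place it, so that its NRF1 core matches begin from 4 bases before to 2 after the start in the files. That of MTERF1, base 91880702, lies 31 bases inside, which puts its match 19 bases before the start in the files. The start of TFAM differs by 1 base, and those of TFB2M and MTPAP are the same in both.
TFAM, NRF1 core 62 bases before the start, chr10:58385338-58385366, plus strand: cgctctcccgCGCCTGCGCcaattccgcc
TFB2M, NRF1 core 16 bases before the start, chr1:246566262-246566287, minus strand: ctccgctgttCGCATGCGCaggctct
POLRMT, 3 overlapping NRF1 core matches that begin 24, 23 and 18 bases before the start, chr19:633540-633568, minus strand: ggcgcggGCGCATGCGCAGGCGcgggccg
MTPAP, NRF1 core 69 bases before the start, chr10:30349329-30349357, minus strand: tcccccccgaCGCATGCGCgaaaacgcgc
POLRMT, GABPA core 94 bases before the start, chr19:633613-633642, minus strand: cctgggagtctACTTCCGGctggggtttcc
MTERF1, GABPA core 50 bases before the start, chr7:91880734-91880763, minus strand: gcgacccgaggCCGGAAGTtagtcttttcc
A match describes letters only and is not evidence of binding. Of the 4 genes with the NRF1 core, POLRMT was lower with PAE in SKOV3 while TFAM, TFB2M and MTPAP were higher, as given further on. The log2 fold changes with the GC and length trend removed were -0.63 for POLRMT, 0.15 for TFAM, 0.56 for TFB2M and -0.10 for MTPAP. Only POLRMT was past the threshold in that fit. Whether the RNA levels of the 4 genes moved together was not tested.

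In SKOV3/DDP, the 13 mitochondrial mRNAs were lower and both rRNAs were higher with PAE, while the log2 fold changes of the nuclear genes with counts lay between -0.52 and 0.61. Untreated SKOV3/DDP libraries held 7.58%, 7.91% and 9.80% of their counts in the 13 mRNAs, and PAE-treated ones held 2.69%, 4.26% and 1.51%. The 2 rRNAs, RNR1 and RNR2, held 1.04%, 1.62% and 1.35% without PAE and 4.03%, 4.35% and 2.395% with it. The groups did not overlap in either measure. In these bulk libraries, a lower level per cell and fewer cells that carry the RNA cannot be told apart. Poly-T beads select polyadenylated RNA, and mitochondrial rRNA carries short tails, so its counts depend on capture as well as abundance. The counts of the mitochondrial mRNAs likewise depend on capture by their tails, whose length was not measured. The counts of rRNA per count of mRNA were 0.137, 0.205 and 0.137 without PAE and 1.498, 1.02 and 1.58 with it, a difference of 3.10 on the log2 scale.

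**Figure D1:**
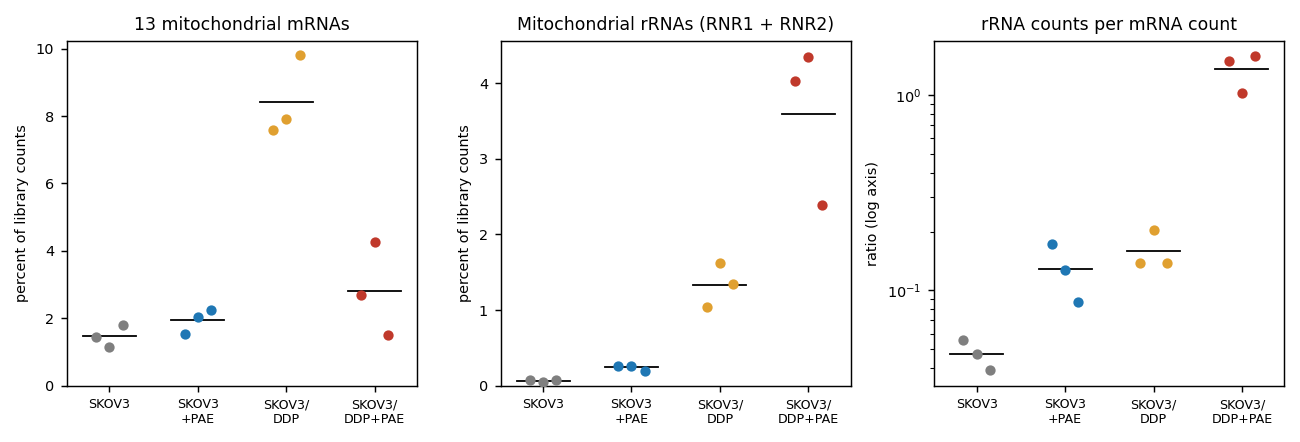
Share of each library's counts (percent) in the 13 mitochondrial mRNAs and in the 2 mitochondrial rRNAs, and the ratio of rRNA to mRNA counts (log axis), by group. Points are libraries and lines are group means; the SKOV3/DDP_PAE libraries lie at ratios of 1.02 to 1.58 and all others at or under 0.205.

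The log2 fold changes of the 13 mRNAs in SKOV3/DDP ranged from -2.64 to -1.04. COX3, a subunit of cytochrome oxidase, measured 4714, 5593 and 5833 CPM (scaled by TMM factors) without PAE and 854, 1310 and 419 with it, a log2 fold change of -2.64 ± 0.36 (SE). COX1, the catalytic subunit of the same enzyme, went from 24170, 26950 and 30340 CPM to 5316, 8774 and 3420, a log2 fold change of -2.22 ± 0.30. At the other end was ND5, a complex I subunit encoded near the far end of the heavy-strand transcript, with -1.04 ± 0.30. The light-strand mRNA ND6 stood at -1.20 ± 0.38, with the strand of counting not given. The small rRNA RNR1 measured 1072, 2237 and 1276 CPM without PAE and 6350, 6683 and 3617 with it (1.86 ± 0.36). The large rRNA RNR2 went from 8412, 14430 and 11110 CPM to 27410, 28930 and 17300 (1.12 ± 0.26). For both, every treated library was above every untreated one. All 13 mRNAs and both rRNAs were past an adjusted p of 0.05 (edgeR), beside 14.7% of all 17133 genes lower and 11.8% higher in this comparison. This is the contrast that led to the choice of genes, so nothing is read from the count.

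**Figure D2:**
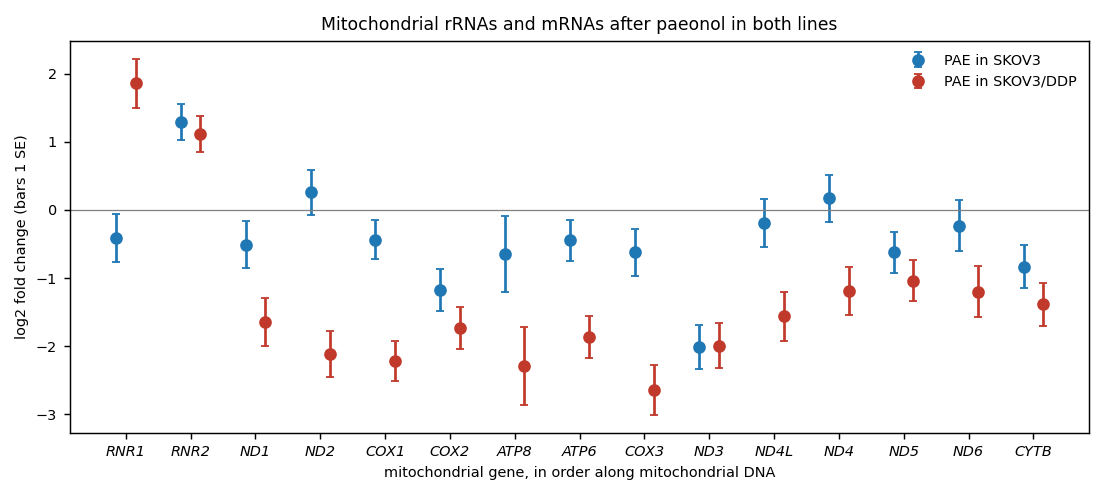
Log2 fold change with PAE (y axis, bars 1 SE from the edgeR fit) of each mitochondrial rRNA and mRNA, in the order of the genes along mitochondrial DNA (x axis), in SKOV3 and in SKOV3/DDP. In SKOV3/DDP the rRNAs lie at 1.86 and 1.12 and the mRNAs between -2.64 and -1.04, while in SKOV3 most mRNAs lie nearer to 0.

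MTERF1 had no count in these libraries, so 9 of the 10 nuclear genes could be compared. Of the 9, 4 had a positive and 5 a negative log2 fold change, with a median of -0.11 against 0.00 for all genes. Past an adjusted p of 0.05 were 0 of the 9 by edgeR, beside 26.4% of all genes, and 1, TFAM, had an unadjusted p under 0.05. DESeq2 also gave 0 with 1 unadjusted, and limma-voom 0 with 2. With library size as the only scaling, TFAM passed, beside 16.9% of all genes higher and 11.2% lower. As the PAE contrast in SKOV3/DDP guided the choice of genes, these counts are a description too.

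Among the initiation factors in SKOV3/DDP, TFAM measured 29.8, 27.5 and 27.3 CPM without PAE and 34.6, 33.8 and 53.0 with it, a log2 fold change of 0.52 ± 0.22. Its treated libraries were all above the untreated ones, by a wide margin only in replicate 3. POLRMT measured 83.6, 61.6 and 86.3 CPM without PAE and 57.5, 55.5 and 48.4 with it, a log2 fold change of -0.52 ± 0.27, and stood at -0.25 with the GC trend removed. All treated libraries were below all untreated ones. TFB2M measured 27.1, 30.4 and 24.3 CPM without PAE and 22.9, 19.4 and 33.4 with it (-0.11 ± 0.23), and the groups overlapped. The replication helicase TWNK went from 19.4, 22.4 and 19.4 CPM to 27.7, 22.6 and 27.8 (0.35 ± 0.22), with the treated libraries just above the untreated ones.

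The genes that stabilise and tail the mRNAs gave log2 fold changes between -0.21 and 0.37 in SKOV3/DDP. LRPPRC measured 313, 304 and 251 CPM without PAE and 220, 224 and 333 with it, a log2 fold change of -0.16 ± 0.27 with overlapping groups. SLIRP measured 27.5, 26.6 and 26.8 CPM without PAE and 25.0, 22.5 and 22.6 with it (-0.21 ± 0.22). Its treated libraries were all lower, by a small amount. MTPAP, the poly-A polymerase, measured 27.7, 29.1 and 28.2 CPM without PAE and 35.9, 36.2 and 37.8 with it (0.37 ± 0.21). The group means were 28.3 ± 0.73 and 36.7 ± 1.01 CPM (SD, n = 3), and the groups did not overlap.

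The 2 degradosome genes differed in sign. PNPT1, an exoribonuclease, measured 79.3, 60.3 and 62.2 CPM without PAE and 53.0, 56.0 and 54.1 with it (-0.31 ± 0.26). Its treated libraries were all lower, and the change was -0.14 without SKOV3/DDP replicate 1, the highest of the untreated libraries. SUPV3L1, its helicase partner, measured 34.5, 54.6 and 34.1 CPM without PAE and 62.8, 53.0 and 71.8 with it, a log2 fold change of 0.61 ± 0.32. This was the highest value among the 10 genes, and the groups overlapped through SKOV3/DDP replicate 2.

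**Figure D3:**
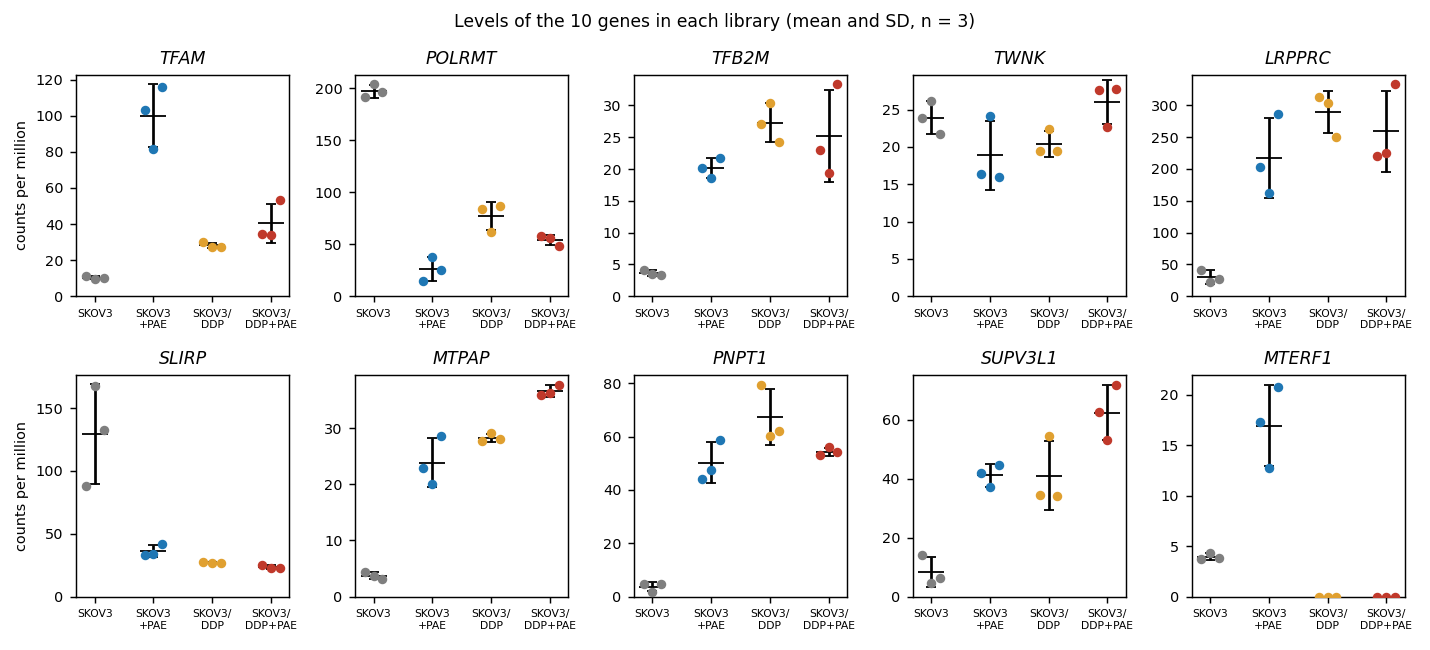
TMM-scaled CPM (y axis, from 0) of the 10 nuclear genes in the 4 groups, with 1 point for each library and bars for the mean and SD of 3 libraries. Most genes differ most between untreated SKOV3 and the other groups, and MTERF1 is at 0 in the SKOV3/DDP groups.

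MTERF1, the termination factor, had no count in any of the 6 SKOV3/DDP libraries. In untreated SKOV3 it had 42, 51 and 45 counts, and with PAE 298, 252 and 395. Against a floor of 3 counts over the 3 SKOV3/DDP libraries, its level was at least 40.9-fold higher in untreated SKOV3 and at least 343-fold higher in SKOV3_PAE, on the scale of library totals. A count of 0 allows up to 0.0636 CPM over the untreated SKOV3/DDP libraries and 0.0595 over the treated ones, for counting error only. MTERF1 passed the filter on low counts through the SKOV3 libraries, and its change with PAE in SKOV3/DDP could not be measured.

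The gene lies at chr7:91870929-91880733 (GRCh38, minus strand), and its neighbours were examined after its counts had been seen. LOC112267986, a long non-coding RNA that in the files begins at the first base of MTERF1 on the opposite strand, also had 0 counts in all 6 SKOV3/DDP libraries, but only 0 to 5 in those of SKOV3, too few to compare. AKAP9, the next gene on one side at 60.1 kb, had 687 to 1799 counts in the SKOV3/DDP libraries, against 61 to 1852 in those of SKOV3. FZD1, 600 kb away on the other side, had 48 to 267, against 405 to 718 in SKOV3. CDK14, 660 kb away, had 1 to 12, against 61 to 1139 in SKOV3. The 8 genes from CYP51A1 to CDK6 shown beyond AKAP9 all had counts in every SKOV3/DDP library. MTERF1 was 1 of 103 genes at 0 in all 6 SKOV3/DDP libraries among the 8740 with at least 40 counts in every SKOV3 library. In the other direction, 78 of 10809 genes were at 0 in SKOV3. Neither DNA copy number nor genotype is measured in RNA counts, and they were not analysed here.

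**Figure D4:**
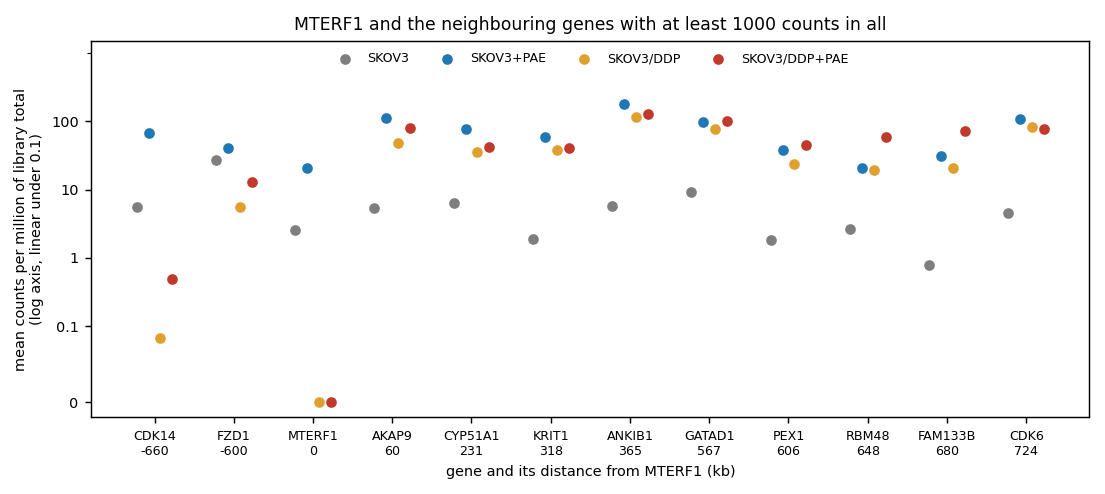
Mean CPM of library totals (y axis, logarithmic and linear under 0.1) of MTERF1 and neighbouring genes with at least 1000 counts over all libraries, ordered by position and labelled with the distance from MTERF1 in kb (x axis), in the 4 groups. MTERF1 alone among them is at 0 in both SKOV3/DDP groups, and CDK14 lies under 1 there.

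In SKOV3, the log2 fold changes of the nuclear genes with PAE ran from -2.92 to 3.75. Past an adjusted p of 0.05 (edgeR) were 9 of 10, beside 75.3% of all genes: 7 were higher, beside 42.6% of all genes, and 2 were lower, beside 32.7%. The median log2 fold change of the 10 was 2.39, against 0.48 for all genes. With library size as the only scaling, 8 were higher and 2 lower, while of all genes 52.9% were higher and 22.4% lower, and the median of all genes was 1.35. With the GC and length trend removed, 5 of 10 passed, beside 50.3% of all genes, with 2 higher and 3 lower and a median of 0.21. In this comparison the log2 fold change of all genes followed GC content with a Spearman correlation of -0.77, and 8 of the 10 genes have GC contents between 36.6% and 45.7%. TWNK is at 53.7% and POLRMT at 66.3%.

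TFAM measured 11.3, 9.36 and 10.2 CPM in SKOV3 and 103, 81.4 and 116 in SKOV3_PAE, a log2 fold change of 3.28 ± 0.24 (edgeR adjusted p = 2.01e-08). It was higher in 3 of 3 treated libraries, but the value was 0.15 with the GC trend removed and did not pass. TFB2M rose from 4.16, 3.49 and 3.30 CPM to 20.2, 18.5 and 21.7 (2.46 ± 0.26, adjusted p = 4.59e-07), and was at 0.56 and under the threshold without the trend. POLRMT moved the other way, from 191, 204 and 196 CPM to 14.9, 37.5 and 25.5 (-2.92 ± 0.29, adjusted p = 2.44e-07). Its fall was -0.63 with the trend removed and still passed (adjusted p = 0.0290). TWNK, at 23.9, 26.1 and 21.8 CPM without PAE and 16.4, 24.2 and 16.0 with it, did not pass (-0.34 ± 0.22, adjusted p = 0.172). Its sign turned to 0.54 with library size as the only scaling and to 0.39 without the GC trend.

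The partners of the stabilising complex went in opposite directions in SKOV3. LRPPRC rose from 41.8, 22.1 and 26.3 CPM to 203, 162 and 286 (2.85 ± 0.29, adjusted p = 3.97e-07), and stood at 0.27, under the threshold, without the GC trend. SLIRP fell from 87.8, 168 and 132 CPM to 33.4, 34.0 and 41.5 (-1.83 ± 0.23, adjusted p = 2.94e-06). No treated library of either gene reached the untreated range. Both transcripts are AT-rich, at 42.4% and 39.4% GC, and SLIRP's fall was larger, -3.50, once the trend on GC content and length had been removed. SLIRP is the shortest of the 10, with 535 bases of gene model in the files. The ratio of the 2 partners was not measured at the protein level.

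The poly-A polymerase and the degradosome genes were all higher with PAE in SKOV3. MTPAP rose from 4.43, 3.75 and 3.05 CPM to 22.9, 20.1 and 28.7 (2.67 ± 0.23, adjusted p = 7.23e-08), but stood at -0.10 without the GC trend. PNPT1 rose from 4.70, 1.87 and 4.57 CPM to 44.1, 47.6 and 58.8, the largest change of the set at 3.75 ± 0.30 (adjusted p = 3.82e-08). SUPV3L1 rose from 14.1, 4.51 and 6.35 CPM to 41.9, 37.1 and 44.7 (2.31 ± 0.35, adjusted p = 2.04e-05). PNPT1 and SUPV3L1 were the only genes of the 10 that were higher and past the threshold both with and without the trend, at 1.07 and 1.09 without it. MTERF1 rose by 2.10 ± 0.34 (adjusted p = 0.000152), and turned to -1.01 (adjusted p = 0.0201) without the trend. How much of these changes goes with base composition was not tested beyond this fit.

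**Figure D5:**
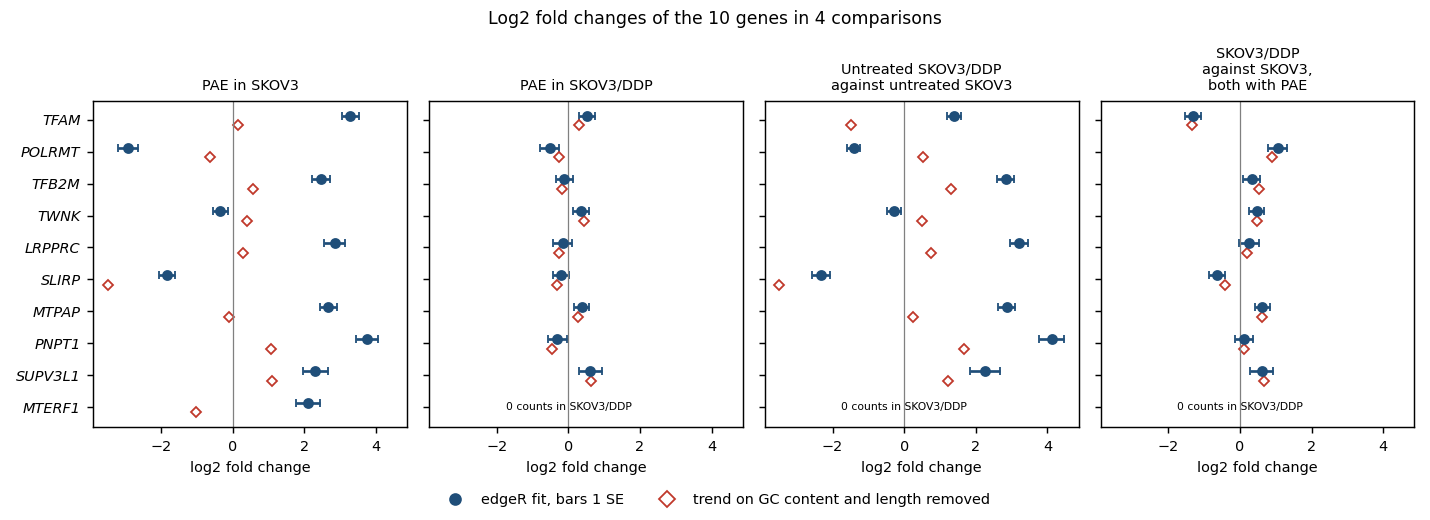
Log2 fold change (x axis) of the 10 nuclear genes (y axis) in 4 comparisons, from the edgeR fit (filled, bars 1 SE) and with the trend on GC content and length removed (open). TFAM stands at 3.28 and 0.15 with PAE in SKOV3, where the 2 values lie far apart for most genes, and they lie close together where untreated SKOV3 is not involved.

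For most mitochondrial RNAs of SKOV3 the direction of change with PAE depended on the scaling, which it did not in SKOV3/DDP. The 13 mRNAs held 1.44%, 1.15% and 1.81% of counts without PAE and 1.55%, 2.05% and 2.23% with it, and the groups overlapped (exact permutation test, two-sided, p = 0.2, where 0.1 is the smallest that 3 against 3 libraries can give). On the TMM scale 11 of 13 mRNAs had a negative log2 fold change, with 3 past the threshold, beside 32.7% of all genes lower: ND3 at -2.01, COX2 at -1.17 and CYTB at -0.84. With library size as the only scaling 11 of 13 were positive, with a median of 0.37. With the GC trend removed all 13 were negative, with a median of -1.07, and 9 were lower past the threshold, beside 50.3% of all genes in either direction. The direction of the group thus turned with the scaling, and none is given. The rRNAs held 0.0805%, 0.0539% and 0.0706% without PAE and 0.266%, 0.261% and 0.195% with it (exact permutation test, two-sided, p = 0.1). RNR2 rose by 1.28 ± 0.26 on the log2 scale (edgeR adjusted p = 0.000413), while RNR1 stood at -0.41 ± 0.35 (adjusted p = 0.294). With the GC trend removed RNR2 stood at -0.28 (adjusted p = 0.353) and RNR1 at -0.96 (adjusted p = 0.0257).

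The ratio of rRNA to mRNA counts does not depend on the scaling of libraries, but the GC trend was not removed from it. It was 0.0558, 0.0469 and 0.0390 in SKOV3 and 0.172, 0.127 and 0.0873 in SKOV3_PAE, a difference of 1.41 on the log2 scale (exact permutation test, two-sided, p = 0.1, the smallest possible). Every treated library was above every untreated one. With RNR1 as the only rRNA the difference was -0.01, so the difference in SKOV3 came from RNR2. RNR2 has 42.8% GC and RNR1 45.5%. In the fit with the GC trend removed, RNR2 stood at -0.28 with PAE in SKOV3 and RNR1 at -0.96. The median of the mRNAs was -1.07 there. How much of the difference in the ratio goes with base composition was not tested. In SKOV3/DDP both rRNAs contributed, with 2.98 from RNR2 alone and 3.75 from RNR1 alone. RNR2 counts per RNR1 count were 2.20 to 2.39 in SKOV3, 5.80 to 10.6 in SKOV3_PAE, 6.45 to 8.71 in SKOV3/DDP and 4.32 to 4.78 in SKOV3/DDP_PAE. Copies of mitochondrial genes in nuclear DNA drew at most 47 counts in a library.

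Between the untreated lines, 9 of 10 nuclear genes passed the test, beside 84.7% of 15323 genes: 6 were higher in SKOV3/DDP, beside 46.1% of all genes, and 3 were lower, beside 38.5%. MTERF1 is among the lower genes through its 0 counts in SKOV3/DDP, and without it 8 of 9 passed. The untreated SKOV3 libraries also serve as the controls of the PAE comparison in SKOV3, so the 2 sets of values are not independent. PNPT1 was higher by 4.12 ± 0.35 on the log2 scale, LRPPRC by 3.21 ± 0.26, MTPAP by 2.86 ± 0.24 and TFB2M by 2.84 ± 0.23. With the GC trend removed they stood at 1.66, 0.75, 0.25 and 1.31, and MTPAP no longer passed (edgeR adjusted p = 0.373). SLIRP was lower, at -2.33 ± 0.26 (edgeR adjusted p = 4.24e-05), and stood at -3.49 with the GC trend removed. In that fit 9 of 10 passed, beside 70.5% of all genes, but they were not the same 9, since MTPAP was lost and TWNK (0.49, adjusted p = 0.0458) gained. Without MTERF1, 8 of 9 passed in it. TFAM turned from 1.40 to -1.49 and POLRMT from -1.41 to 0.53. All 13 mitochondrial mRNAs were higher in untreated SKOV3/DDP, by 1.06 for COX2 to 3.46 for ND2, and so were both rRNAs. All 15 log2 fold changes were positive with TMM, with library size only and with the GC trend removed. The untreated SKOV3/DDP libraries are part of the contrast that led to the choice of genes, so these mitochondrial values are not independent of it.

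With PAE in both lines the comparison was nearly free of the GC trend, with a Spearman correlation of -0.00764 across genes. Past the threshold were 5 of 10, beside 54.5% of all genes: 2 were higher in SKOV3/DDP, beside 27.5%, and 3 were lower, beside 27.1%. MTERF1 was again among the lower genes. It was tested only through its counts in SKOV3, so it had to be lower, and without it 4 of 9 passed. TFAM was lower, at -1.31 ± 0.22 (edgeR adjusted p = 0.000153), with 34.6, 33.8 and 53.0 CPM in SKOV3/DDP_PAE against 103, 81.4 and 116 in SKOV3_PAE. POLRMT was higher, at 1.05 ± 0.27 (adjusted p = 0.00428), with 57.5, 55.5 and 48.4 CPM against 14.9, 37.5 and 25.5. MTPAP was higher at 0.62 ± 0.21 (adjusted p = 0.0207) and SLIRP lower at -0.63 ± 0.22 (adjusted p = 0.0262). SLIRP did not pass without SKOV3_PAE replicate 3 (-0.53), SKOV3/DDP_PAE replicate 2 (-0.61) or replicate 3 (-0.61), nor with the GC trend removed (-0.41). MTPAP did not pass without SKOV3_PAE replicate 1 (0.57) or replicate 2 (0.49), nor without a filter on low counts (0.60). LRPPRC, PNPT1, TFB2M, TWNK and SUPV3L1 lay between 0.12 and 0.60 and did not pass. With the GC trend removed 6 of 10 passed, beside 59% of all genes, and without MTERF1 5 of 9 passed. Of the mitochondrial rRNAs, RNR1 was higher in SKOV3/DDP_PAE by 4.53 ± 0.40 and RNR2 by 3.81 ± 0.29 on the log2 scale. Of the 13 mitochondrial mRNAs, 12 had a positive and 1 a negative log2 fold change, with a median of 0.58. Past the threshold 5 were higher, beside 27.5% of all genes, and 0 lower, beside 27.1%. The SKOV3/DDP_PAE libraries are part of the contrast that led to the choice of genes, so these mitochondrial values are not independent of it.

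The difference of the PAE effect between the lines passed the test for 62.9% of all genes and for 8 of the 9 nuclear genes with counts in both lines, all but TWNK. Since it contains the contrast that led to the choice of genes, it is described only. With the GC and length trend removed, 2 of the 9 remained past the threshold, SLIRP and PNPT1. The share of all genes past it in that fit is not given here, so nothing is read from this count.

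Per kilobase of gene model, the levels of the 10 genes had a different order in each group. The GC trend was not removed from these levels. SLIRP has 535 bases of gene model but a longest transcript of 865, and its rank at that length was not examined. In untreated SKOV3, SLIRP led with 242 ± 74.7 CPM per kb (SD, n = 3), followed by POLRMT with 44.0 ± 1.39, and TWNK (6.33 ± 0.58), LRPPRC (4.45 ± 1.53) and SUPV3L1 (3.04 ± 1.86) came next, with overlapping spreads between neighbours. In untreated SKOV3/DDP, SLIRP (50.4 ± 0.86) and LRPPRC (42.8 ± 4.98) led. Behind them POLRMT (17.2 ± 3.02), TFB2M (15.3 ± 1.72), SUPV3L1 (15.0 ± 4.30) and PNPT1 lay within each other's spread, and TWNK (5.40 ± 0.45) overlapped with both TFAM (5.54 ± 0.28) and MTPAP (5.10 ± 0.13), which did not overlap with each other. With PAE in SKOV3/DDP, SLIRP (43.7 ± 2.68) and LRPPRC (38.3 ± 9.43) still led and their spreads overlapped. The mitochondrial mRNAs ranged from 215 CPM per kb for ATP8, which overlaps ATP6, to 17610 for COX1 in untreated SKOV3/DDP.

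Other genes of mitochondrial transcription and DNA maintenance, 16 in all, were measured beside these. Counts of these and the following lists are of genes past an adjusted p of 0.05 (edgeR), and those for PAE in SKOV3/DDP stand beside 11.8% of all genes higher and 14.7% lower. With PAE in SKOV3/DDP 1 was higher and 3 were lower, with a median log2 fold change of -0.02. DNA2, a nuclease and helicase of DNA replication and repair, went from 10.02, 9.59 and 10.9 CPM to 17.7, 22.3 and 23.1 (1.05 ± 0.25). MRPL12, a mitochondrial ribosomal protein that also binds POLRMT, went from 37.7, 30.02 and 35.0 CPM to 14.2, 13 and 9.62 (-1.48 ± 0.23), and TFB1M, the rRNA methyltransferase related to TFB2M, from 29.8, 29.1 and 33.6 to 18.03, 18.6 and 16.3 (-0.81 ± 0.23). With PAE in SKOV3 11 of the 16 were higher, beside 42.6% of all genes, and 4 lower, beside 32.7% (median 1.72). With the GC trend removed 8 were higher and 1 lower, beside 50.3% of all genes in either direction. MTERF2, a relative of MTERF1, was higher there by 4.66 ± 0.36, and by 2.85 without the trend (both past the threshold). MRPL12 was lower by 3.16 on the log2 scale but stood at 0.12 without the trend. With PAE in both lines 1 of the 16 was higher in SKOV3/DDP, beside 27.5% of all genes, and 3 were lower, beside 27.1%. Between the untreated lines 10 were higher, beside 46.1%, and 4 lower, beside 38.5%, and with the GC trend removed 7 and 2, beside 70.5% in either direction.

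Of 31 genes of mitochondrial RNA processing, modification and decay, 30 were tested. With PAE in SKOV3/DDP 2 were higher and 2 lower (median -0.08). PDE12, a nuclease that removes poly-A from mitochondrial RNA, went from 50.9, 36.7 and 43.3 CPM to 75.7, 82.0 and 116 (1.06 ± 0.24). PRORP, the nuclease subunit of mitochondrial RNase P, which cuts the 5′ ends of tRNAs, went from 45.1, 25.5 and 35.3 CPM to 13.4, 17.04 and 22.2 (-1.01 ± 0.28). In SKOV3 16 rose with PAE, beside 42.6% of all genes, and 13 fell, beside 32.7% (median 1.60). Without the GC trend 9 rose and 8 fell, beside 50.3% in either direction. FASTKD1 (4.29 ± 0.39) and the tRNA methyltransferase TRMT5 (4.02 ± 0.32) rose most, and HSD17B10, another subunit of mitochondrial RNase P, fell by 3.15 on the log2 scale. They stood at 1.51, 1.16 and -0.48 without the trend. With PAE in both lines, 6 of the 30 were higher in SKOV3/DDP, beside 27.5% of all genes, and 9 lower, beside 27.1%. MTO1 (2.29 ± 0.37) and TRMU (1.22 ± 0.22), both of which modify mitochondrial tRNA, led the first, and DDX28 (-2.23 ± 0.27) and FASTKD3 (-1.87 ± 0.24) the second. Between the untreated lines 16 were higher, beside 46.1%, and 13 lower, beside 38.5%, with MTO1 at 4.37 and TRMT10C, the third subunit of mitochondrial RNase P, at 4.35, and DDX28 at -4.32 and HSD17B10 at -3.88. With the GC trend removed 11 were higher and 11 lower, beside 70.5% in either direction, and MTO1 stood at 1.81, TRMT10C at 2.51, DDX28 at -2.20 and HSD17B10 at -1.11.

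Regulators of mitochondrial biogenesis numbered 9. With PAE in SKOV3/DDP 7 had a positive and 2 a negative log2 fold change (median 0.35), and 4 were higher past the threshold, beside 11.8% of all genes, and 0 lower, beside 14.7%. PPARGC1A, the coactivator PGC-1α, went from 3.74, 2.84 and 1.90 CPM to 8.82, 11.1 and 11.6 (1.89 ± 0.46). In SKOV3_PAE it had 1.28, 1.07 and 1.95 CPM, and SKOV3/DDP_PAE was higher by 2.87 ± 0.49 (edgeR adjusted p = 0.000159). Both values use the SKOV3/DDP_PAE libraries, so they are not independent. With PAE in SKOV3 PPARGC1A was higher too, by 1.46 ± 0.56 (edgeR adjusted p = 0.0271), but stood at -1.49 with the GC trend removed. The difference of its PAE effect between the lines was 0.43, not past the threshold, and 3.25, past it, with the GC trend removed. With PAE in SKOV3 5 were higher, beside 42.6% of all genes, and 1 lower, beside 32.7% (median 1.46). The latter was the receptor ESRRA, which fell by 2.99 on the log2 scale and stood at -0.44 without the GC trend. With the trend removed 4 were higher and 2 lower, beside 50.3% in either direction. With PAE in both lines 2 were higher in SKOV3/DDP, beside 27.5%, and 1 lower, beside 27.1%. Between the untreated lines 5 were higher, beside 46.1%, and 3 lower, beside 38.5%, and 2 and 2 with the GC trend removed, beside 70.5% in either direction.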

How the data were processed

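RNA sequencing counts of 12 libraries were analysed. The files deposited by the authors hold raw, whole-number counts, 1 library to a file, at 47219 loci on GRCh38, of which 869 without a gene name (0.126% to 0.678% of a library's counts) were left out. The submitters' processing notes name HISAT2 2.0.5, StringTie 1.3.3b, DESeq2 and edgeR, with no roles, and the strand of counting is not given in the sources used here. Groups came from the labels. Counts were filtered (filterByExpr), TMM-normalized and tested with edgeR 4.0.16 (quasi-likelihood, Benjamini-Hochberg adjustment over all genes, threshold 0.05) in R 4.3.3, with 1 fit of 12 libraries for the PAE comparisons and that of the lines with PAE, and 1 of 6 libraries for the untreated lines. The SE of a log2 fold change is its size over the root of the F statistic. Transcript GC content and length came from GENCODE 29. For GC removal, each library's deviations were fitted by splines (5 degrees of freedom) on both. DESeq2 1.42.0 and limma 3.58.1 were alternatives. Intervals and floors cover counting error only. Scripts were tested on simulated data. No 2 libraries of a group agreed within sampling noise.

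The members, gene lists and alternatives were chosen with earlier results of these data known. Of the other lists, the 3 genes with the largest change of each sign were named per comparison, at an adjusted p under 0.05 (by size alone for PAE in SKOV3/DDP), provided that the group with more averaged at least 10 CPM and that libraries of the compared groups did not overlap.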

Additional observations from a re-analysis of the deposited data

Results flagged for a closer look

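The difference of the PAE effect between the lines contains the contrast that led to the choice of genes, so it is described only. It passed the test for 8 of the 9 nuclear genes with counts in both lines. It also passed for 6 of the 13 mitochondrial mRNAs and 1 of the 2 mitochondrial rRNAs. The test was the interaction term of the edgeR fit at an adjusted p under 0.05, which 62.9% of all genes passed. All values are the log2 fold change in SKOV3/DDP minus that in SKOV3. Lower in SKOV3/DDP were PNPT1 (-4.06), LRPPRC (-3.01), TFAM (-2.77), TFB2M (-2.57), MTPAP (-2.30) and SUPV3L1 (-1.70). Higher were POLRMT (2.401) and SLIRP (1.63). With the trend on GC content and length removed, the values of PNPT1 (-1.52) and SLIRP (3.18) still passed, while TFAM (0.14), POLRMT (0.38), TFB2M (-0.74), LRPPRC (-0.54), MTPAP (0.36) and SUPV3L1 (-0.47) did not. Among the mitochondrial RNAs the difference was -2.37 for ND2, -2.02 for COX3, -1.78 for COX1, -1.42 for ATP6, -1.37 for ND4, -1.37 for ND4L and 2.27 for RNR1. With the trend removed RNR1 stood at 2.82, COX3 at -1.93, ND2 at -1.23 and COX1 at -1.09, all past the threshold. ATP6, ND4 and ND4L did not pass. In that fit RNR2 (1.35) and ND1 (-1.22) passed too, which they had not done before its removal. The share of all genes past the threshold with the trend removed is not given here, so nothing is read from the calls in that fit. The genes were chosen with the SKOV3/DDP contrast in view, so these differences are descriptions.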

How the results depend on the processing

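The GC and length trend changed most. With it removed, the count for PAE in SKOV3 went from 9 to 5 of 10, MTPAP reversed to -0.10, MTERF1 to -1.01 and TWNK to 0.39, and between the untreated lines TFAM reversed to -1.49, POLRMT to 0.53 and TWNK to 0.49. With library size as the only scaling TWNK reversed to 0.54 with PAE in SKOV3 and to 0.45 between the untreated lines, and the count for PAE in SKOV3/DDP went from 0 to 1. The cause of these shifts was not tested. With RNR1 as the only rRNA, the log2 ratio of rRNA to mRNA was -0.0136 in SKOV3 (1.41 with both) and 3.75 in SKOV3/DDP (3.10 with both). Leaving out 1 library at a time gave counts of 9 to 10 for PAE in SKOV3, 0 to 0 for PAE in SKOV3/DDP, 4 to 5 for the lines with PAE and 9 to 9 for the untreated lines, and log2 ratios of 1.17 to 1.66 in SKOV3 and 2.98 to 3.29 in SKOV3/DDP. Libraries with the same number did not deviate together (mean correlations of -0.0696 to 0.0456). With the replicate number as a block the counts were 9, 0, 5 and 9 and the ratios 1.41 and 3.10, and no call changed. As MTERF1 had 0 counts in every SKOV3/DDP library, no setting could measure its change with PAE there.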
